A study of Mus musculus with 36 samples.

Results

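The 10 loci described here encode proteins that switch signalling off: the cytokine signalling suppressors Socs1, Socs2, Socs3 and Cish, the MAP kinase phosphatases Dusp1, Dusp2, Dusp4, Dusp5 and Dusp16, and the mRNA decay factor Zfp36. They are described through their ATAC-seq peaks, chosen by position alone: every row of the deposited count table whose interval overlaps the body of one of the 10 genes or the 10 kb to either side (mm10). This gave 91 of 119751 peaks, and all 91 passed the filter on low counts. Socs1 had 4 peaks, Socs2 5, Socs3 11, Cish 11, Dusp1 11, Dusp2 5, Dusp4 8, Dusp5 10, Dusp16 18 and Zfp36 8. Of the 91 peaks, 42 touched a gene body and the others lay in the flanks.

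ATAC-seq counts fragments cut from open chromatin by a transposase, so a higher count in a peak means that the DNA there was more accessible. Dendritic cells were grown from the bone marrow of C57BL/6 mice (female, 6 to 8 weeks old) with 15 ng/mL GM-CSF, and pattern recognition receptor ligands were applied for 6 h before the 36 libraries were made. Each library was made from the nuclei of 50000 cells with 12 cycles of amplification. There were 18 groups of 2 libraries. One was an unstimulated control (Ctrl), and 6 received a single ligand. These were depleted zymosan (Z), 3',3'-cGAMP (cG), SeV (S), LPS (L), PAM (P) and HMW (H), with the short names used in group names and figures in brackets. A further 8 received a pair (PL, PH, LH, PS, PcG, ScG, ZS and ZcG) and 3 a triplet (PLH, PScG and ZScG), so that each triplet was measured with all of its pairs and single ligands. All groups shared the strain, the GM-CSF culture and the exposure time, and the doses are not given in the sources used here. Nothing in the labels says that the 2 libraries of a group came from separate animals or cultures, so the p-values measure the spread between these libraries, which may be technical.

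As background, pattern recognition receptors activate MAP kinases and NF-kappaB within minutes and lead cells to secrete interferons and cytokines, which then act back through JAK kinases and STAT factors. SOCS proteins and CISH are induced by STAT factors and bind cytokine receptors or JAK kinases, so that the signal shuts itself off. Dual-specificity phosphatases remove phosphates from MAP kinases, and ZFP36 (tristetraprolin) binds AU-rich elements and speeds the decay of cytokine mRNAs. In dendritic cells these brakes set how long an inflammatory response lasts.

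The promoters of 8 of the 10 genes were in the RefSeq promoter table (GRCm38.p6). Below are the 250 bases before the annotated start of the 4 genes whose start sites the results turn on, with a short site from the Socs3 promoter, in lower case and read 5′ to 3′. All 8 promoter windows lay inside the start-site peak of their gene. Capitals mark matches of the letters named after the sequences.
Socs1 promoter (chr16:10785537-10785786, minus strand): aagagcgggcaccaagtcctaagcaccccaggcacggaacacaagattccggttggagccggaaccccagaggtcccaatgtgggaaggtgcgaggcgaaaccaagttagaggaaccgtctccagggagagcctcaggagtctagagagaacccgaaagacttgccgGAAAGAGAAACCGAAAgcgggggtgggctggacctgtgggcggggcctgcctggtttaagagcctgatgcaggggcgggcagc
Cish promoter (chr9:107296409-107296658, plus strand): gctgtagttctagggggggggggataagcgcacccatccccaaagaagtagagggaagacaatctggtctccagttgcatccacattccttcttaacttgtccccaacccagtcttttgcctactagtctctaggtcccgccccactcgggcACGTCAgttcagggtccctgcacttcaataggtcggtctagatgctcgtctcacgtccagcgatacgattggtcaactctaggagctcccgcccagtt
Dusp1 promoter (chr17:26508473-26508722, minus strand): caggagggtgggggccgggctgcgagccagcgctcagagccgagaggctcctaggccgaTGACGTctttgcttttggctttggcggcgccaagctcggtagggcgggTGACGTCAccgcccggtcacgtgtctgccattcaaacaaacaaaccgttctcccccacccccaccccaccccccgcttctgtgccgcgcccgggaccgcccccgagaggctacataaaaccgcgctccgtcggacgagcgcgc
Dusp2 promoter (chr2:127335909-127336158, plus strand): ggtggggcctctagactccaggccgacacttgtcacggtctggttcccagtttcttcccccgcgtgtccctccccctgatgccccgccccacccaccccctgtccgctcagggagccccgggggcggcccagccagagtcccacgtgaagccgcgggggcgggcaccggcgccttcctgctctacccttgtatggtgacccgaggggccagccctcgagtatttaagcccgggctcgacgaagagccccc
Socs3 site (chr11:117969502-117969530, minus strand): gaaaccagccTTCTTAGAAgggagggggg
Motifs were searched by letters on both strands. The Socs1 capitals hold 2 overlapping matches of the interferon-stimulated response element (GAAA, any 2 bases, GAAA), at -83 to -74 and at -77 to -68 from the start. These letters occur in 2.98% of 32851 promoters of the same length. In the Socs3 site they mark TTCTTAGAA, a match of the STAT letters TTCNNNGAA at -154 to -146, which 7.02% of promoters hold. Zfp36 also held a match of the STAT letters, at -17 to -9, and Socs1 and Cish held none. Dusp1 held the full cAMP response element TGACGTCA at -143 to -136 (1.55% of promoters) and the shorter form TGACGT at -191 to -186 (6.47%, a figure that counts both strands). The Cish capitals are the shorter form read on the other strand, ACGTCA, at -98 to -93. Dusp2 held no match of the STAT, AP-1 (TGANTCA), cAMP or interferon letters. The looser NF-kB letters (GGG, any 5 bases, CC) occurred in 7 of the 8 windows and in 45.8% of all promoters. A match of letters is a description of the sequence and not a measured binding site.

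Total counts per library ranged from 19097027 to 39977088. A single peak over the mitochondrial genome held 44.1% to 63.1% of them and was left out, which left 8181254 to 21985891 counts. This mitochondrial share moved with the groups: the group means were 58.3% (ZScG), 59.4% (ScG), 61.0% (control), 61.7% (Z) and 63.0% (ZcG), against 44.4% (L) to 54.5% (ZS) in the other 13 stimulations. The ZS libraries lay apart, at 58.1% and 51.0%. The first of them exceeded 1 library each of ScG (57.3%) and ZScG (57.9%), so ZS is placed by its mean only. For the 13 stimulations with the lower means, stimulation and mitochondrial share cannot be told apart in the comparison with control. The Z, ZcG, ScG and ZScG comparisons stay within 1 range of the share, and their counts are given separately. The same limit holds for each comparison of these groups with the others, such as zymosan against another single ligand, ZS against zymosan and ZcG or ScG against cGAMP. All 11 dendritic cell marker genes and all 6 macrophage genes had a peak no more than 1 kb from either end, against 1 of 7 neutrophil, 1 of 5 T cell, 1 of 4 B cell and 0 of 3 mast cell or basophil genes. It was also so for 2 of 3 NK cell, 1 of 2 erythroid and 2 of 2 stromal genes. The summed CPM at the dendritic genes ran from 110 to 160 and that at the neutrophil genes from 6.37 to 21.7 over the libraries. By group, the neutrophil sum was 18.9 in control and lowest in ZScG, at 7.25. The macrophage sum was highest in control, at 165.5, and lowest in PScG, at 118.8, and the B cell sum was 1.42 in control and highest in PScG, at 7.90. The part of such differences in the results was not tested. Fewer responding cells and a smaller change in each cell cannot be told apart in bulk libraries.

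Across the 17 stimulations, the loci opened far more often than they closed. A peak was called where the adjusted p of edgeR's quasi-likelihood test was under 0.05, with adjustment over all 119464 tested peaks within each comparison. Of the 1547 member tests against control, 412 were called higher (26.6%) and 38 lower (2.46%). Over all tested peaks, 13.0% were called higher and 12.3% lower. Scaling to total counts in place of TMM, which moved the median log2 fold change of all peaks by up to 0.42, gave 618 member tests higher and 9 lower. These comparisons share the 2 control libraries and are not independent of each other. In all, 66 of the 91 peaks were called at least once, 56 of them higher, 12 lower and 2 both, and 25 were never called. The median log2 fold change over the 1547 member tests was 0.45.

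Among single ligands, PAM opened 22 of the 91 peaks, LPS 23, HMW 10, SeV 24, cGAMP 22 and zymosan 9. Over all peaks the shares called higher were 11.1% for PAM, 11.2% for LPS, 5.21% for HMW, 14.1% for SeV, 11.6% for cGAMP and 4.16% for zymosan. Pairs opened 33 (PL, where 13.8% of all peaks were called higher), 25 (PH, 13.6%), 18 (LH, 11.3%), 30 (PS, 17.3%), 31 (PcG, 16.8%), 22 (ScG, 14.4%), 28 (ZS, 14.4%) and 17 (ZcG, 11.4%). The triplets opened 32 (PLH, 14.9%), 35 (PScG, 19.0%) and 31 (ZScG, 16.2%). Lower calls numbered 1 to 4 in each stimulation. Within the 4 stimulations that share the control's range of mitochondrial counts, 79 of 364 tests were higher (21.7%) and 7 lower (1.92%), beside 11.5% and 10.4% of all peaks. In the other 13 the figures were 28.1% and 2.62%, beside 13.4% and 12.9%.

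**Figure D1:**
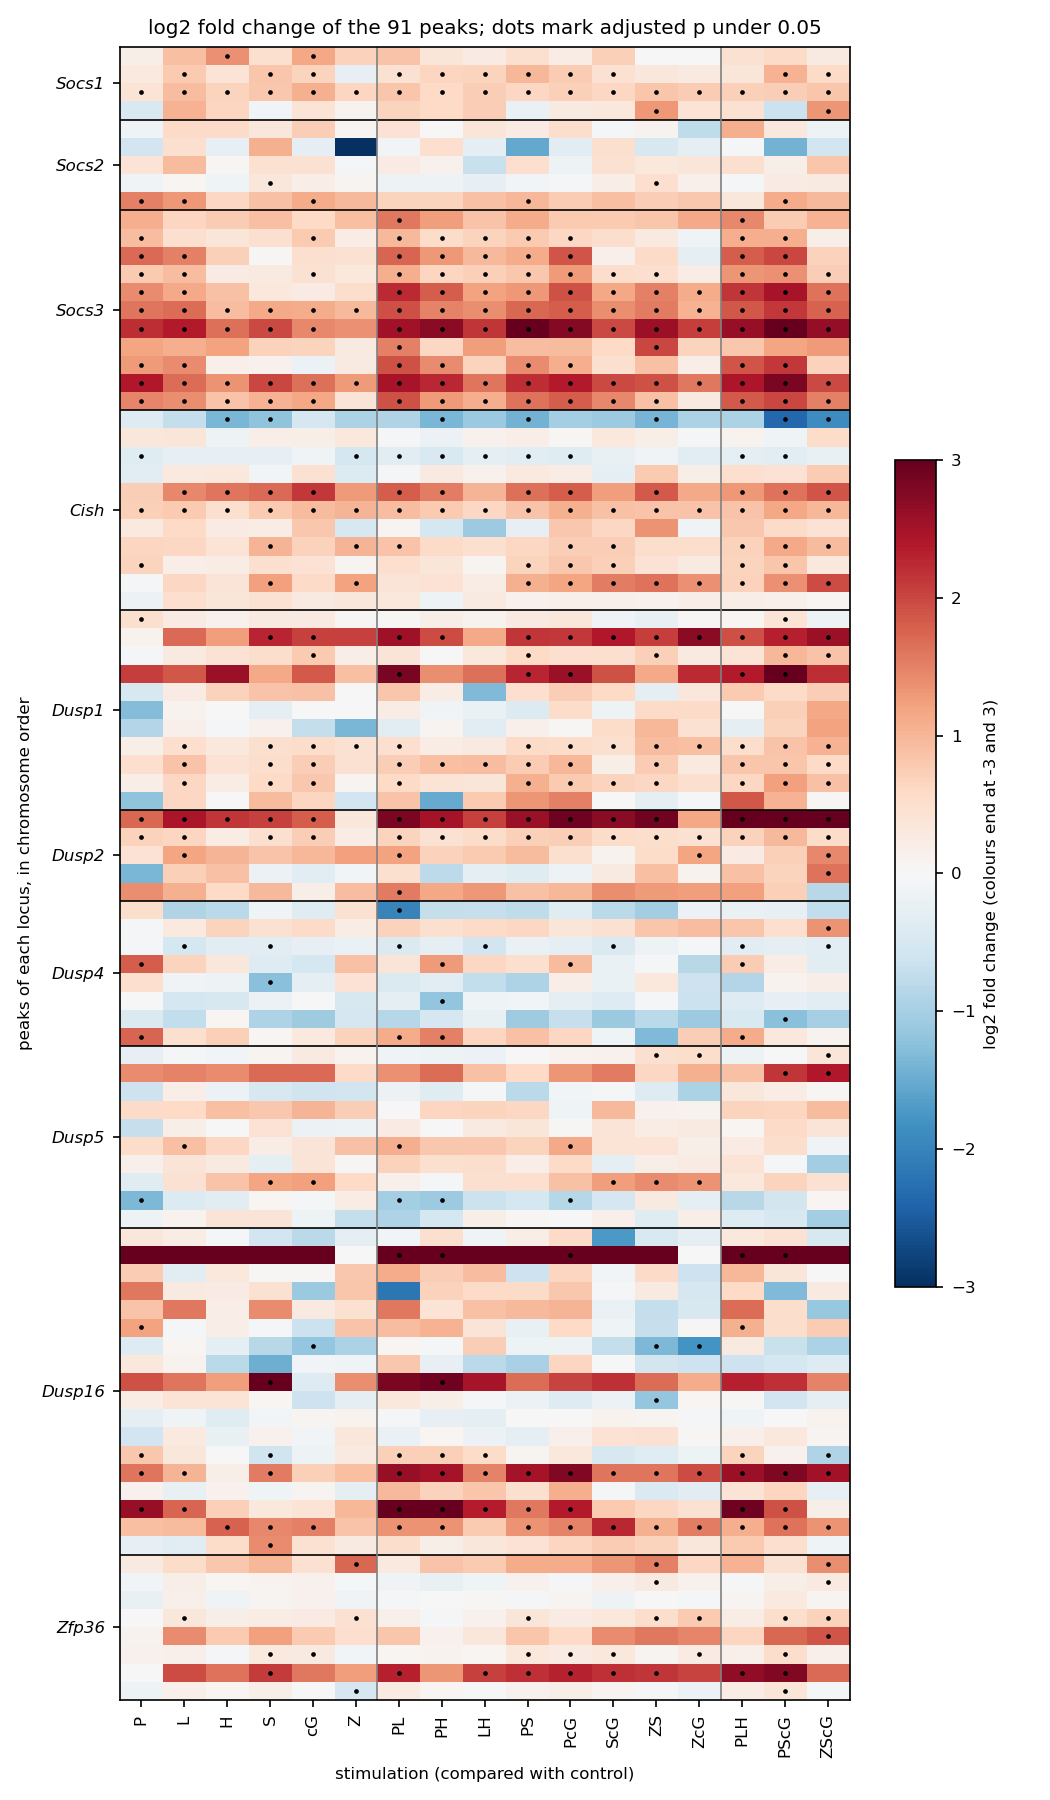
Log2 fold change against control (colour, ending at 3 in either direction) of the 91 peaks (rows, grouped by locus and ordered along the chromosome) in the 17 stimulations (columns); dots mark called peaks. Socs3 rows are the most uniformly higher, and the darkest Dusp16 row is a peak with 0 counts in both control libraries, where the colour depends on the fit's prior count.

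The loci differed in how much of their chromatin moved. Over all tested peaks, 13.0% were called higher and 12.3% lower against control. The shares of higher calls at Dusp4, Dusp5 and Socs2 lay below that of all peaks, and the share at Dusp16 was near it. Socs3 was highest with 121 of 187 tests called higher (median log2 fold change 1.17), and each of its 11 peaks was called higher at least once. Dusp2 followed with 36 of 85 higher (median 0.86) and Socs1 with 32 of 68 (0.62). Dusp1 had 60 of 187 higher (0.55), Cish 53 higher and 16 lower of 187 (0.35), and Zfp36 30 higher and 1 lower of 136 (0.24). Dusp16 had 51 higher and 6 lower of 306 (0.33), Dusp5 13 and 4 of 170 (0.22), and Socs2 7 higher of 85 (0.27). Dusp4, with 9 higher and 11 lower of 136, was the only locus of the 10 with a median below 0 (-0.19), and its lower calls depended on the scaling, with 7 by DESeq2 and 0 with total-count scaling. Just 4 peaks were called higher in all 17 stimulations: the start-site peaks of Socs1, Socs3 and Cish, and a peak 8.5 kb upstream of Socs3.

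**Figure D2:**
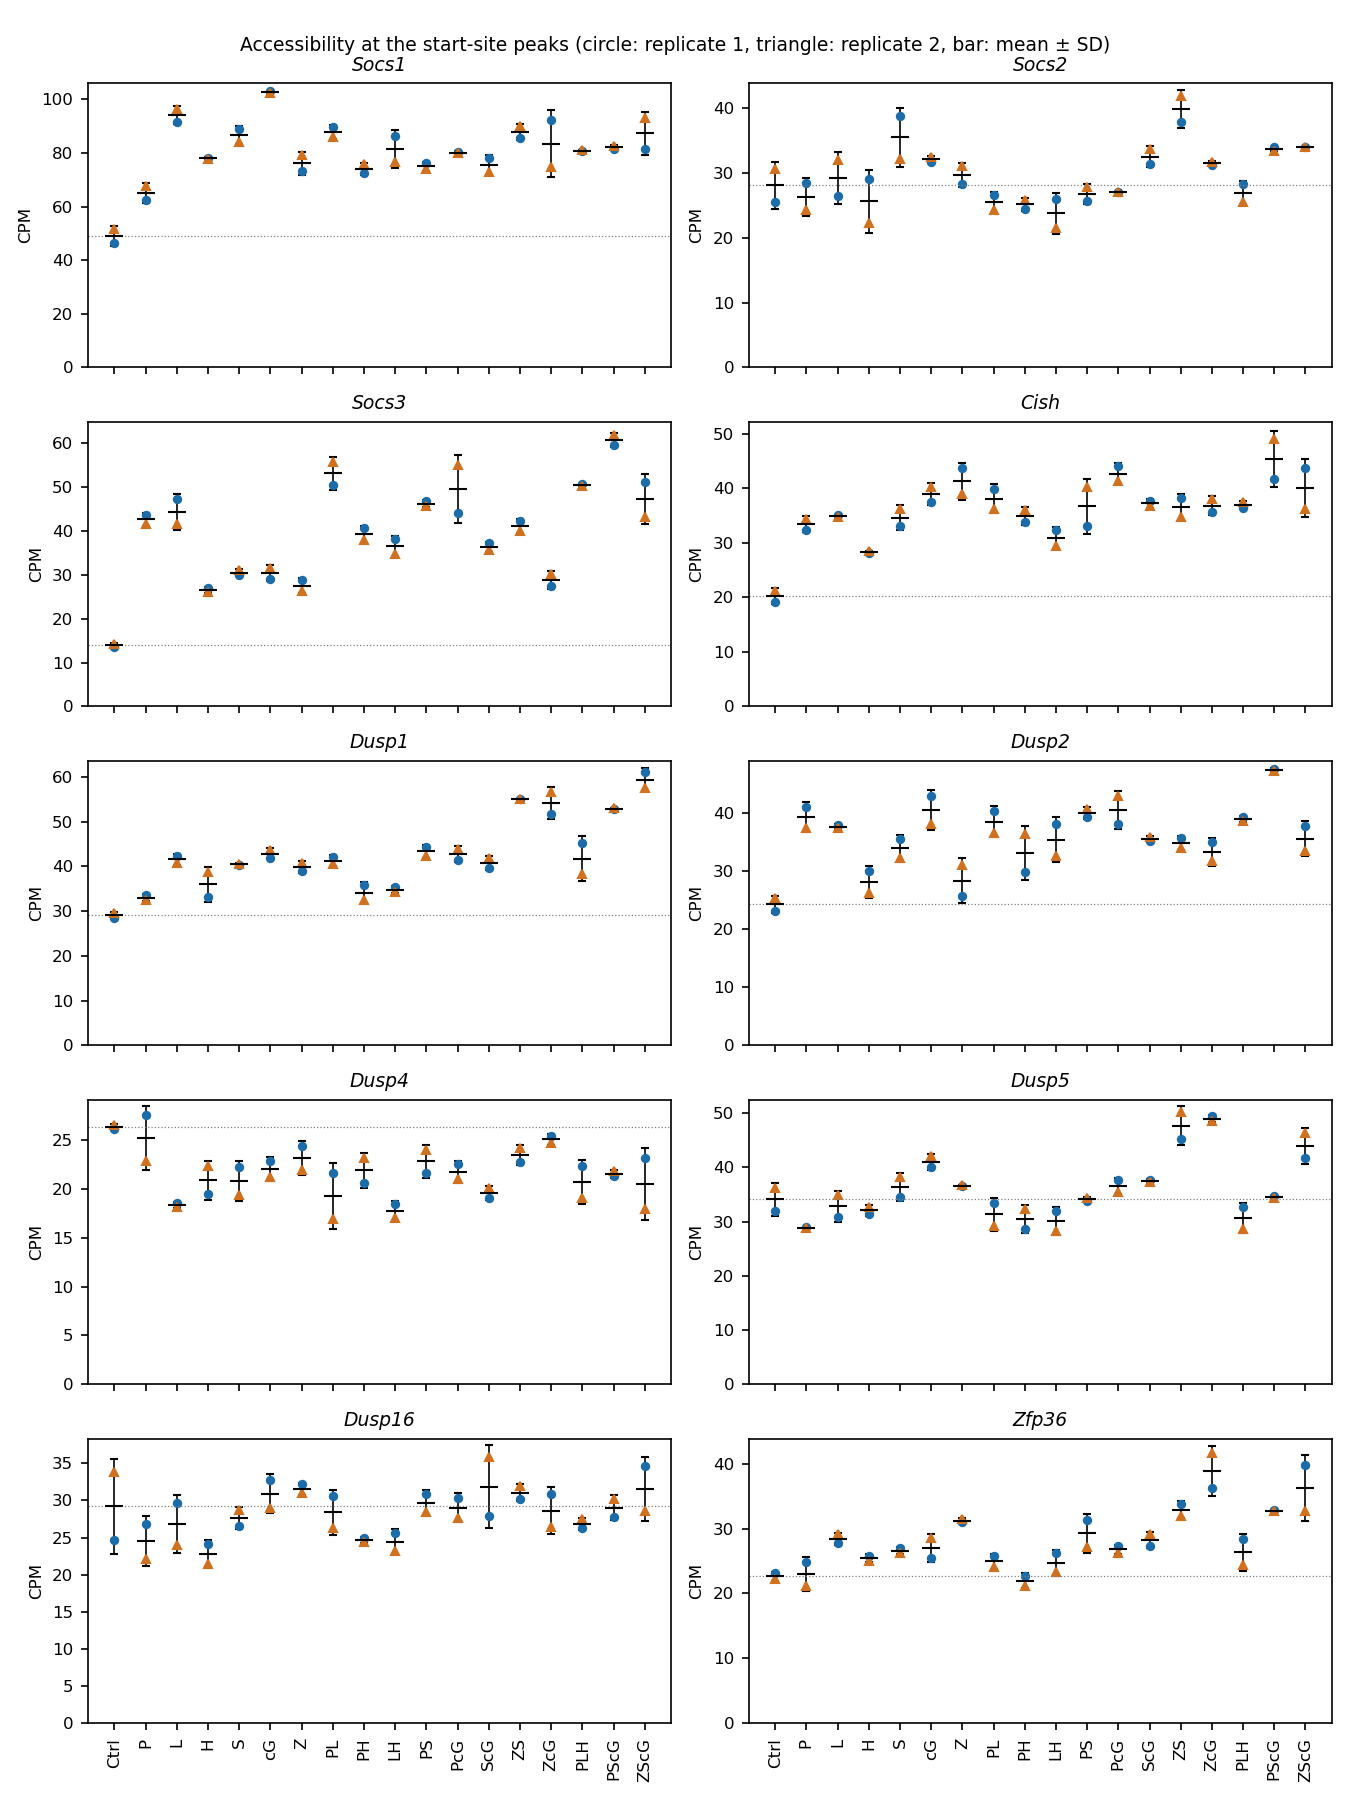
CPM (counts scaled to a common library size) of the start-site peak of each of the 10 genes (panels) in every library (points) of the 18 groups (horizontal axis), with the group mean ± SD as bars and the control mean as a dotted line. All stimulated libraries lie above both control libraries for Socs1, Socs3 and Cish, whereas Dusp16 libraries scatter around the control mean.

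Socs3 encodes the suppressor that binds gp130-type cytokine receptors and restrains STAT3. Its start-site peak (chr11:117967672-117970447) covers the promoter, including the STAT letters printed above, and most of the gene. CPM, the counts scaled by TMM to a common library size, were 13.5 and 14.3 in the control libraries. With single ligands they were 43.7 and 41.7 (PAM), 47.3 and 41.5 (LPS), 27.1 and 26.0 (HMW), 29.9 and 31.0 (SeV), 29.0 and 31.7 (cGAMP) and 28.7 and 26.3 (zymosan). No stimulated library overlapped the control libraries, and PAM and LPS stood above the other single ligands. Pairs gave 50.5 and 55.8 (PL), 40.6 and 37.9 (PH), 38.2 and 34.7 (LH), 46.7 and 45.6 (PS), 44.1 and 55.0 (PcG), 37.2 and 35.6 (ScG), 42.4 and 40.0 (ZS) and 27.4 and 30.3 (ZcG). The triplets reached 50.7 and 50.4 (PLH), 59.7 and 62.0 (PScG) and 51.3 and 43.3 (ZScG). The change was smallest with HMW, at 0.93 on the log2 scale (± 0.130 SE, adjusted p = 7.83e-09), and largest with PScG, at 2.13 ± 0.124 (adjusted p = 8.08e-38).

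In the order of the single ligands, LPS and PAM were neighbours that did not pass the test against each other, as were SeV, cGAMP, zymosan and HMW among themselves. The gap between these sets was called in each of the 8 comparisons across it: PAM exceeded SeV by 0.49 ± 0.110 (adjusted p = 0.000199) and HMW by 0.68 ± 0.112, and LPS exceeded HMW by 0.74 ± 0.111 (adjusted p = 1.78e-07). These tests compare ligands directly and leave the control out of the contrast, although the control libraries entered the shared scaling and fit.

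Upstream of Socs3, the peak centred at -8545 (bases from the annotated start, negative upstream; chr11:117977334-117978488, in the 5′ flank and in no other annotated gene) opened with every stimulation. Control libraries held 3.93 and 3.18 CPM. PScG libraries held 26.8 and 23.8, a log2 fold change of 2.83 ± 0.202 (adjusted p = 8.59e-29), and zymosan, the weakest, 7.22 and 9.86 (1.28 ± 0.236, adjusted p = 2.56e-05). Here PAM, with 18.2 and 19.0 CPM, exceeded LPS, with 10.1 and 12.6, by 0.71 ± 0.161 (adjusted p = 0.000626). The start-site peak showed no such call between these ligands. Control levels per length were 5.01 CPM per kb at the start site and 3.08 at -8545.

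Nearer the start, the peak at -1743 (chr11:117970829-117971389) held the locus's largest called change. It rose from counts of 2 and 9 in control to 62 and 81 in PScG, a log2 fold change of 3.32 ± 0.460 (adjusted p = 3.60e-10), and was called in 16 stimulations, zymosan being the exception (1.36 ± 0.575, adjusted p = 0.156). Downstream, the peaks at 3890 and 5405 were each called in 13 stimulations. The peak at 6918 (chr11:117961991-117962905) split the ligands. Its control CPM were 3.28 and 3.38, PAM gave 11.1 and 10.5, LPS 9.82 and 9.11, SeV 3.07 and 3.69 and cGAMP 4.93 and 4.44. PAM exceeded SeV there by 1.67 ± 0.236 (adjusted p = 1.41e-09) and LPS exceeded SeV by 1.48 ± 0.236 (adjusted p = 3.93e-07). It was called against control in 9 stimulations, all containing PAM or LPS.

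**Figure D3:**
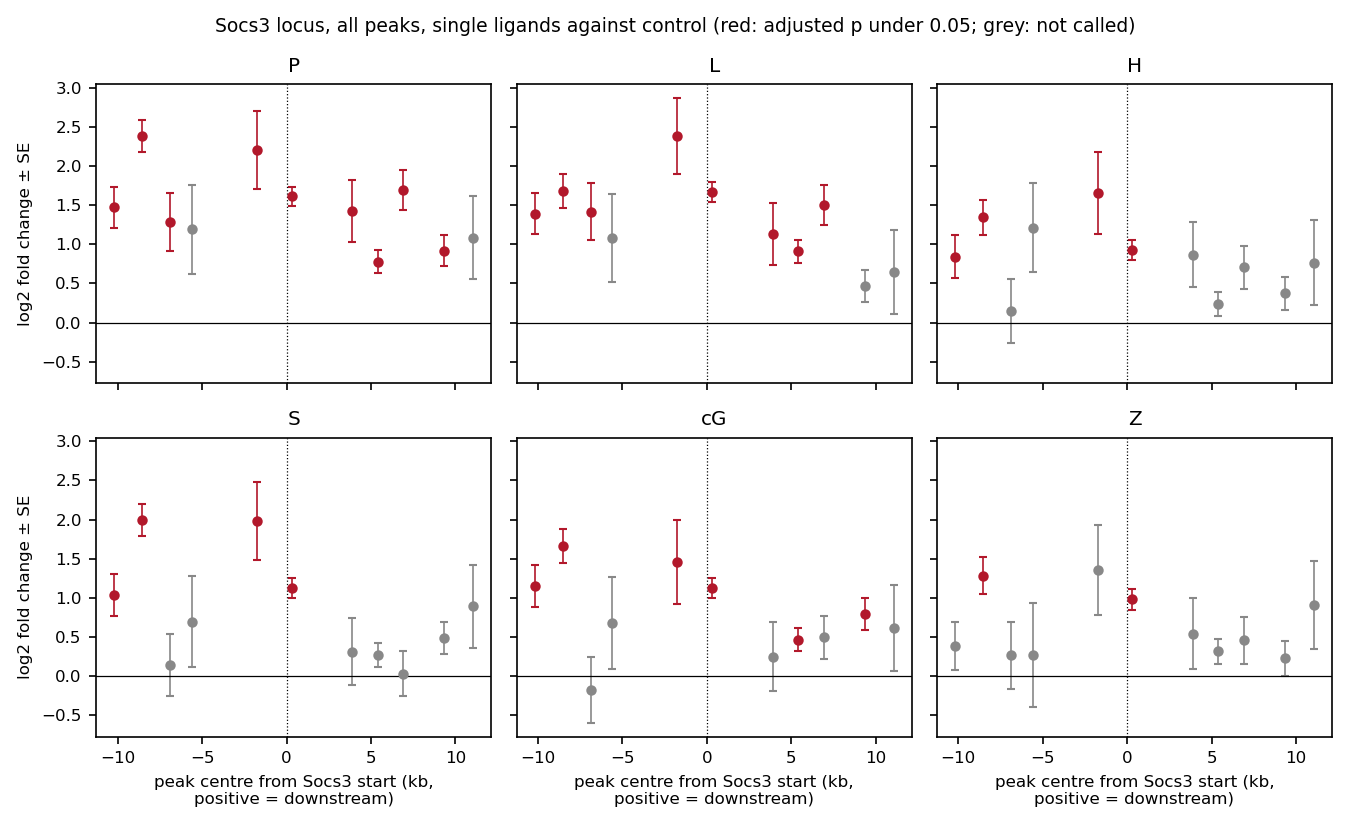
Log2 fold change against control ± SE (vertical axis) of the 11 Socs3 peaks at their distance from the annotated start in kb (horizontal axis) for the 6 single ligands (panels); red points were called and grey points were not. The start-site peak and the peak at -8545 are called in all 6 panels, and the peak at 6918 only in the PAM and LPS panels.

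Socs1 encodes the suppressor that blocks JAK kinases below interferon receptors. Its start-site peak (chr16:10784113-10787839) contains the printed promoter with the overlapping interferon response letters. CPM were 46.4 and 51.7 in control, 62.6 and 67.7 with PAM, 91.6 and 96.4 with LPS, 78.3 and 77.8 with HMW, 89.0 and 84.3 with SeV, 103 and 102 with cGAMP and 73.1 and 79.2 with zymosan. All single-ligand libraries exceeded both control libraries, and cGAMP was highest of all 18 groups. Pairs and triplets lay between 72.6 (PH) and 93.1 (ZScG). The log2 fold change was 1.06 ± 0.0950 with cGAMP (adjusted p = 4.83e-20) and 0.41 ± 0.0962 with PAM (adjusted p = 0.000511), the smallest of the 17. PAM lay below cGAMP by 0.66 on the log2 scale (-0.66 ± 0.0914, adjusted p = 9.41e-10) and below LPS (-0.53 ± 0.0910, adjusted p = 2.59e-06).

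The 3 pairs with cGAMP fell below cGAMP alone at the Socs1 start site: ScG by 0.44 on the log2 scale (-0.44 ± 0.0920, adjusted p = 0.000494), PcG (-0.36 ± 0.0896, adjusted p = 0.00310) and ZcG (-0.30 ± 0.0922, adjusted p = 0.0487). PcG (45.1%) lay in the same range of mitochondrial share as cGAMP (46.1%), whereas ScG (59.4%) and ZcG (63.0%) did not, so that for these 2 pairs the second ligand and the share cannot be told apart. A broad peak downstream of Socs1, at 3401 (chr16:10780664-10783606), was called higher in 11 stimulations. Its CPM were 10.5 and 11.0 in control, 22.2 and 22.5 in PScG (1.05 ± 0.163, adjusted p = 1.67e-08) and 8.14 and 9.97 in zymosan, where it was not called (-0.24 ± 0.188, adjusted p = 0.534). SeV exceeded zymosan there by 1.07 ± 0.170 (adjusted p = 1.42e-07). The locus's largest called change was at 10683 (chr16:10774636-10775071), from counts of 14 and 16 in control to 72 and 39 in HMW (1.37 ± 0.420, adjusted p = 0.0188). That call was lost without either control library or without HMW replicate 1 (adjusted p = 0.118, 0.103 and 0.190).

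Cish encodes a SOCS protein that restrains STAT5, the factor that GM-CSF activates. Its start-site peak (chr9:107295455-107297429) contains the printed promoter. CPM were 19.2 and 21.2 in control, 28.1 and 28.4 with HMW (0.48 ± 0.125, adjusted p = 0.00423), 43.7 and 38.9 with zymosan (1.02 ± 0.125, adjusted p = 3.94e-11) and 41.8 and 49.1 with PScG (1.17 ± 0.122, adjusted p = 3.46e-16). Every stimulated library lay above both control libraries. Zymosan exceeded HMW at this site (HMW against zymosan -0.54 ± 0.118, adjusted p = 0.00127).

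The Cish flanks moved in opposite directions. At -2186 (chr9:107294210-107294736), counts rose from 6 and 10 in control to 42 and 54 with cGAMP (2.13 ± 0.465, adjusted p = 0.000141), and the peak was called higher in 12 stimulations. Further upstream, inside Mapkapk3 (a kinase activated by p38), the peak at -9809 (chr9:107286646-107287055) fell from counts of 36 and 25 to 10 and 5 in PScG (-2.36 ± 0.527, adjusted p = 9.70e-05), with 7 lower calls. The Mapkapk3 start-site peak at -7300 was lower in 9 stimulations, by at most 0.52 (zymosan, -0.52 ± 0.123, adjusted p = 0.00221). These 2 peaks hold all 16 lower calls of the Cish locus, and both belong by position to the neighbouring gene. The number of lower calls at the locus depended on the scaling. It was 17 by DESeq2, 10 with abundance-dependent scaling, 8 with libraries thinned to 1 depth and 4 with total-count scaling.

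Socs2, which restrains growth hormone receptor signalling, was the SOCS locus with the fewest calls. The start-site peak used for it (chr10:95414609-95418274, overlapping the lncRNA gene 5730420D15Rik; the reference gives no strand for Socs2) held 25.6 and 30.7 CPM in control. ZS gave 37.8 and 41.9 (0.50 ± 0.126, adjusted p = 0.000884) and SeV 38.7 and 32.2 (0.33 ± 0.123, adjusted p = 0.0319), the only 2 of the 17 stimulations called there. The ZS call was lost without control replicate 1 (0.39, adjusted p = 0.0611). A flanking peak (chr10:95422665-95423059) rose from counts of 16 and 14 to 57 and 62 with PAM (1.51 ± 0.384, adjusted p = 0.00141) and was also higher with LPS, cGAMP, PS and PScG.

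Dusp1 encodes the nuclear phosphatase that acts on p38 and JNK. Its start-site peak (chr17:26507047-26509829), which contains the printed promoter with the cAMP response element, was called higher in 13 stimulations. CPM were 28.5 and 29.5 in control, 33.5 and 32.4 with PAM (0.18 ± 0.113, adjusted p = 0.268), 42.3 and 40.7 with LPS, 40.2 and 40.6 with SeV, 41.9 and 43.6 with cGAMP and 38.8 and 40.7 with zymosan. PAM, HMW, PH and LH were the 4 stimulations not called. The highest libraries were those with zymosan in combination: 54.9 and 55.0 in ZS, 51.7 and 56.7 in ZcG and 61.1 and 57.5 in ZScG, the last a log2 fold change of 1.03 ± 0.113 (adjusted p = 1.11e-14). ZS exceeded zymosan alone by 0.47 ± 0.110 (adjusted p = 0.000927) and SeV alone by 0.44 ± 0.105 (adjusted p = 0.00504), and ZcG exceeded zymosan alone by 0.44 ± 0.111 (adjusted p = 0.00308).

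Around Dusp1, the upstream peaks at -4443 and -6194 were called higher in 12 and 11 stimulations, with control levels of 5.40 and 6.51 CPM per kb against 10.4 at the start site. The peak at 6356 (chr17:26501958-26502274, in the predicted gene Gm34455) was called in 12. It rose from counts of 5 and 1 in control to 11 and 25 in ZcG (2.70 ± 0.693, adjusted p = 0.00157), whereas PAM gave 6 and 3. At 3850 (chr17:26504520-26504725), PScG libraries held 16 and 17 counts against 0 and 3 in control, a ratio of 8.52 (95% interval 2.67 to 43.4, for counting error only; adjusted p = 0.00403). That call was lost without control replicate 1 (adjusted p = 0.103).

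Dusp2 encodes a nuclear phosphatase of ERK and p38 that immune cells induce on activation. Its start-site peak (chr2:127334972-127336899, also overlapping the gene Gm46762), with the printed promoter, was called higher in 15 stimulations. CPM were 23.2 and 25.3 in control, 41.0 and 37.4 with PAM (0.69 ± 0.120, adjusted p = 1.17e-06), 30.0 and 26.1 with HMW (0.22 ± 0.123, adjusted p = 0.275), 25.6 and 31.1 with zymosan (0.23 ± 0.128, adjusted p = 0.322) and 47.6 and 47.2 with PScG (0.97 ± 0.119, adjusted p = 2.72e-12). The upstream peak at -1771 (chr2:127333979-127334797) was nearly closed in control, with counts of 3 and 5. It reached 51 and 63 in PScG (3.44 ± 0.512, adjusted p = 4.82e-09), and of the 17 stimulations zymosan (counts 2 and 7) and ZcG (7 and 9) were the 2 not called. Adding SeV to zymosan raised it to 27 and 36 (ZS against zymosan 2.56 ± 0.532, adjusted p = 0.000129).

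Dusp4 encodes a nuclear phosphatase of ERK and JNK, and under TMM scaling its start-site peak went down. At chr8:34806296-34808540, CPM were 26.1 and 26.5 in control, 18.6 and 18.2 with LPS (-0.52 ± 0.136, adjusted p = 0.00196) and 18.4 and 16.98 in LH (-0.57 ± 0.138, adjusted p = 0.000742). It was lower in 7 stimulations (L, S, PL, LH, ScG, PLH and ZScG). DESeq2 called it lower in 4 and abundance-dependent scaling in 3. With total-count scaling the peak was called in 0, with log2 fold changes from -0.36 to 0.26, so its direction rests on the scaling. PAM libraries, at 27.5 and 22.9, spanned the control values and exceeded LPS by 0.46 ± 0.133 (adjusted p = 0.0115). The largest called change of the locus was in a flanking peak (chr8:34804266-34804635), from counts of 12 and 12 to 3 and 4 in PL (-2.01 ± 0.753, adjusted p = 0.0337). It was lost without any 1 of those 4 libraries (adjusted p from 0.0632 to 0.246).

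Dusp5 encodes a nuclear phosphatase specific for ERK. Its start-site peak (chr19:53528580-53530202) was called higher in the 3 combinations of zymosan and in none of the other 14 stimulations. CPM were 31.9 and 36.3 in control, 36.5 and 36.7 with zymosan alone (0.10 ± 0.119, adjusted p = 0.711), 45.2 and 50.2 in ZS (0.48 ± 0.115, adjusted p = 0.000452), 49.5 and 48.5 in ZcG (0.52 ± 0.116, adjusted p = 0.000225) and 41.7 and 46.3 in ZScG (0.36 ± 0.118, adjusted p = 0.0106). Both pairs exceeded zymosan alone: ZcG by 0.42 ± 0.117 (adjusted p = 0.00946) and ZS by 0.38 ± 0.116 (adjusted p = 0.0129). The largest called change was at 3128 (chr19:53532121-53532426), with counts of 26 and 6 in ZScG against 0 and 7 in control (2.40 ± 0.728, adjusted p = 0.00593), a call lost without control replicate 1 (adjusted p = 0.176) or ZScG replicate 1 (adjusted p = 0.411). At 16162 (chr19:53544969-53545645) the peak was lower with PAM, PL, PH and PcG, and PAM lay below SeV by 1.41 on the log2 scale (-1.41 ± 0.345, adjusted p = 0.000705).

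Dusp16, a phosphatase of JNK and p38, had a start site that passed no test, beside peaks in its long gene body that did. The start-site peak (chr6:134790948-134793116) was called in 0 of 17 stimulations by edgeR and in 0 by DESeq2, with 3 at an unadjusted p under 0.05, and total-count scaling called it higher in 4. Control libraries held 24.7 and 33.8 CPM, and the lowest unadjusted p was in HMW, with 24.1 and 21.5 (-0.36 ± 0.131, unadjusted p = 0.00668, adjusted p = 0.0581). Without control replicate 1 it was called lower there (-0.55, adjusted p = 0.0188). The annotated gene extends beyond the start used here, so peaks at negative distances lie in the gene body, where they also overlap 1700055D16Rik.

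Of these, the peak at -5245 (chr6:134797556-134798191) was called higher in 14 stimulations. CPM were 0.874 and 1.83 in control, 3.89 and 4.55 with PAM, 8.00 and 11.2 in PcG (2.78 ± 0.323, adjusted p = 1.85e-13) and 8.44 and 10.9 in PScG (2.81 ± 0.327, adjusted p = 1.58e-13). PcG exceeded PAM alone by 1.17 ± 0.256 (adjusted p = 0.000271) and cGAMP alone by 2.07 ± 0.280 (adjusted p = 1.57e-09). The peak at -13701 (chr6:134806058-134806601) was called in 13, and was highest in ScG, with 6.70 and 8.09 CPM against 0.983 and 2.03 (2.26 ± 0.357, adjusted p = 5.57e-08). Beyond the gene's 3′ end, the peak at chr6:134712915-134713114 held 0 counts in both control libraries and 20 and 12 in PLH. Against the 3 counts that an observed 0 allows over the group, the PLH counts as observed were higher by 2.83 on the log2 scale (adjusted p of the fit = 0.000861). That figure leaves out the counting error of the PLH libraries.

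Zfp36 encodes the decay factor tristetraprolin, which targets mRNAs such as that of Tnf. Its start-site peak (chr7:28377360-28379954) was called higher in 7 stimulations (L, Z, PS, ZS, ZcG, PScG and ZScG). CPM were 23.2 and 22.2 in control, 31.0 and 31.5 with zymosan (0.46 ± 0.132, adjusted p = 0.0160) and 36.2 and 41.6 in ZcG (0.78 ± 0.129, adjusted p = 3.83e-07). PAM libraries, at 24.9 and 21.2, spanned the control values, and PAM lay below zymosan by 0.44 (-0.44 ± 0.128, adjusted p = 0.0110). ZcG exceeded cGAMP alone by 0.52 ± 0.124 (adjusted p = 0.00484). The most accessible of the 91 peaks per length in control was upstream of it, at -3153, with 31.0 CPM per kb. That peak was called higher in 7 stimulations, at most by 0.54 ± 0.0859 (PScG, 146 and 143 CPM against 107 and 92.3, adjusted p = 4.78e-08). A small peak at -5357 held counts of 16 and 31 in PScG against 5 and 0 (2.78 ± 0.750, adjusted p = 0.00146), and that call was lost without control replicate 2 (adjusted p = 0.109).

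Direct comparisons of the 6 single ligands, which leave the control out of the contrast, called 111 member tests higher and 63 lower of 1365. Over all peaks 5.57% and 5.82% were called. Here higher means higher in the ligand listed first, in the order PAM, LPS, HMW, SeV, cGAMP, zymosan. The sums over these comparisons therefore have no direction of their own. PAM against SeV gave 26 of the 91 peaks, 11 higher and 15 lower (24.5% of all peaks called), and PAM against cGAMP 22, with 12 higher and 10 lower (23.8%). SeV against cGAMP gave 0 calls with edgeR and 0 with DESeq2, with 10 peaks at an unadjusted p under 0.05 (0.949% of all peaks called). The member shares for PAM against SeV and cGAMP are near those of all peaks.

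Several peaks, chosen here after their values were seen, separated the ligands. Dusp16 at -10226 (chr6:134802549-134803160) held 1.86 and 1.35 CPM in control, 10.6 and 8.88 with PAM, 5.02 and 5.72 with LPS, 2.73 and 2.50 with HMW, 2.22 and 1.72 with SeV, 2.71 and 1.58 with cGAMP and 2.89 and 3.46 with zymosan. PAM and LPS libraries stood above all others, and the 9 stimulations called against control were those that contain PAM or LPS. PAM exceeded SeV by 2.30 ± 0.271 (adjusted p = 6.53e-13), cGAMP by 2.19 ± 0.276 (adjusted p = 1.46e-11) and LPS by 0.85 ± 0.238 (adjusted p = 0.00767). Adding SeV to PAM lowered it to 5.14 and 4.52 (PS against PAM -1.02 ± 0.237, adjusted p = 0.000523). With both cGAMP and SeV added it was 6.64 and 5.48.

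In the Dusp4 gene body, the peak at chr8:34811179-34811809 rose most with PAM alone. CPM were 3.39 and 3.28 in control, 9.16 and 14.2 with PAM (1.81 ± 0.290, adjusted p = 1.30e-07), 1.96 and 3.14 with SeV and 2.63 and 2.01 with cGAMP. A second ligand took the level down from that of PAM: to 4.52 and 4.18 in PL (against PAM -1.42 ± 0.272, adjusted p = 5.13e-05), 4.58 and 4.89 in PS (-1.30 ± 0.256, adjusted p = 2.96e-05) and 6.93 and 5.87 in PcG (-0.87 ± 0.252, adjusted p = 0.00900). PH, at 8.16 and 8.15, was not called against PAM. This gene-body gain ran beside a start-site peak that was not called with PAM (-0.06 ± 0.135, adjusted p = 0.798).

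Cish at 11344 (chr9:107307415-107308591, in the 3′ flank) showed the opposite preference. CPM were 2.84 and 4.05 in control, 3.43 and 3.25 with PAM (-0.06 ± 0.289, adjusted p = 0.924), 8.44 and 7.93 with SeV (1.24 ± 0.258, adjusted p = 4.71e-05), 8.01 and 7.97 with zymosan (1.20 ± 0.273, adjusted p = 0.00123) and 14.1 and 13.1 in ZScG (1.97 ± 0.259, adjusted p = 7.65e-11). PAM lay below SeV (-1.29 ± 0.245, adjusted p = 8.26e-06) and below zymosan (-1.26 ± 0.261, adjusted p = 0.000166). Adding SeV to PAM raised it by 1.13 ± 0.244 (adjusted p = 0.000154) and adding cGAMP by 1.25 ± 0.244 (adjusted p = 4.16e-05). Dusp16 at -3962 moved both ways: PAM raised it (20.1 and 18.8 CPM against 10.6 and 11.6; 0.81 ± 0.176, adjusted p = 0.000156) and SeV lowered it (7.07 and 7.50; -0.61 ± 0.190, adjusted p = 0.00918).

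**Figure D4:**
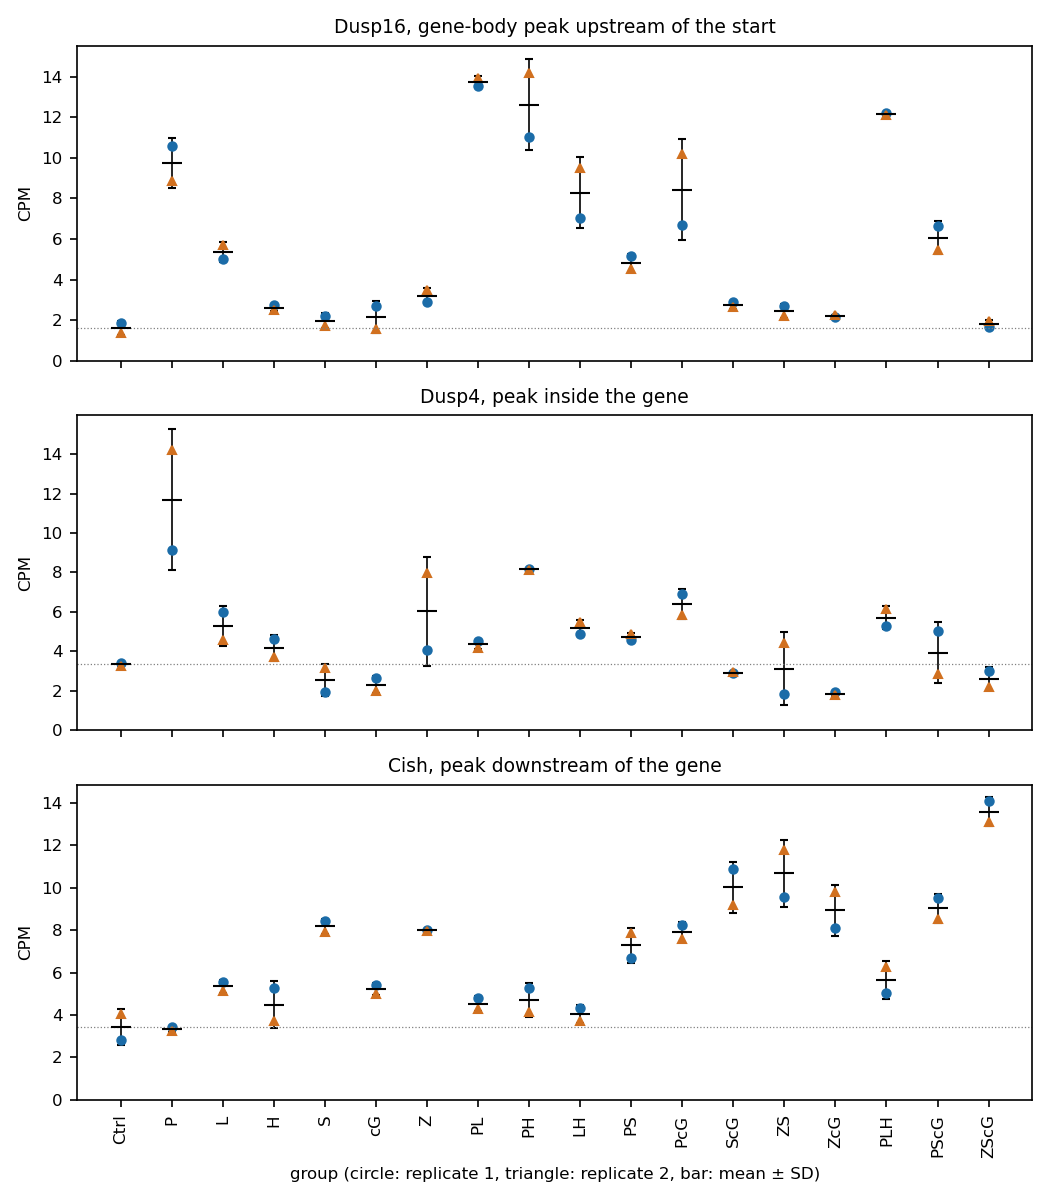
CPM of 3 peaks, Dusp16 at -10226, the Dusp4 gene-body peak and Cish at 11344 (panels), in every library (points) of the 18 groups (horizontal axis), with the group mean ± SD as bars. The Dusp16 peak is high where PAM or LPS is present, the Dusp4 peak is highest with PAM alone, and the Cish peak is highest in ZScG and at the control level with PAM alone.

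Adding a second ligand opened the loci more often than it closed them. Each of the 8 pairs was compared with both of its single ligands, giving 97 higher and 27 lower calls of 1456 tests, beside 3.56% and 2.92% of all peaks. ZS against zymosan gave 16 higher and 4 lower (6.63% and 8.53% of all peaks), a comparison of groups at 54.5% and 61.7% mitochondrial share. PcG against PAM gave 15 and 3 (7.39% and 7.35%) and PS against PAM 11 and 6 (9.36% and 8.78%), both within 1 range of the share. LH against LPS gave 0 calls with edgeR and 0 with DESeq2, with 12 peaks at an unadjusted p under 0.05 (0.0645% of all peaks called), and ScG against SeV 0 and 0, with 8 at an unadjusted p under 0.05 (0.579%). At the Socs3 start site, PcG exceeded cGAMP alone by 0.70 ± 0.109 (adjusted p = 1.81e-07), ZS exceeded zymosan by 0.58 ± 0.119 (adjusted p = 0.000101) and PL exceeded PAM by 0.31 ± 0.108 (adjusted p = 0.0493).

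Where the test was passed, pairs nearly always fell short of the sum of their ligands. The pair interaction, AB - A - B + control on the log2 scale, was called in 61 of 728 member tests: 60 were negative and 1 was positive, beside 3.1% and 2.07% of all peaks. By pair, the calls numbered 12 in PL (6.75% of all peaks called in either direction), 3 in PH (1.55%), 11 in LH (4.88%), 4 in PS (4.59%), 7 in PcG (3.27%), 13 in ScG (14.4%), 5 in ZS (3.43%) and 6 in ZcG (2.49%). Counted in either direction, the shares of members in PS (4 of 91) and ScG (13 of 91) are near those of all peaks. Negative calls numbered 22 at Socs3, 11 at Cish, 10 at Socs1, 7 at Dusp1, 5 at Dusp2, 2 each at Socs2 and Dusp16, and 1 at Dusp4. The 1 positive call was the Mapkapk3 start-site peak in ZS (0.64 ± 0.168, adjusted p = 0.0109), which zymosan alone had lowered.

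The lowest p belonged to the Socs1 start site in ScG, where SeV and cGAMP gave log2 fold changes of 0.82 and 1.06 alone and 0.62 together (interaction -1.26 ± 0.132, adjusted p = 6.06e-15). At Socs3 -8545, PAM and SeV gave 2.39 and 1.99 alone and 2.21 together (-2.18 ± 0.262, adjusted p = 2.06e-11). The Socs3 start site was called in 7 of 8 pairs, with the lowest p in PL (-1.36 ± 0.165, adjusted p = 2.90e-11). ZS was the pair not called (-0.55 ± 0.175, adjusted p = 0.0569). At the Dusp4 gene-body peak, PL gave -2.08 ± 0.407 (adjusted p = 8.49e-05). An interaction uses the control libraries and both single-ligand groups, so the 8 tests at a site share libraries. In each pair, the groups added and those subtracted also differ in mitochondrial share. In ScG, the pair (59.4%) and control (61.0%) are set against SeV (47.9%) and cGAMP (46.1%). In ZS, where a group of the higher range stands on either side, the pair (54.5%) and control are set against zymosan (61.7%) and SeV. The interaction and the share cannot be told apart in these pairs.

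**Figure D5:**
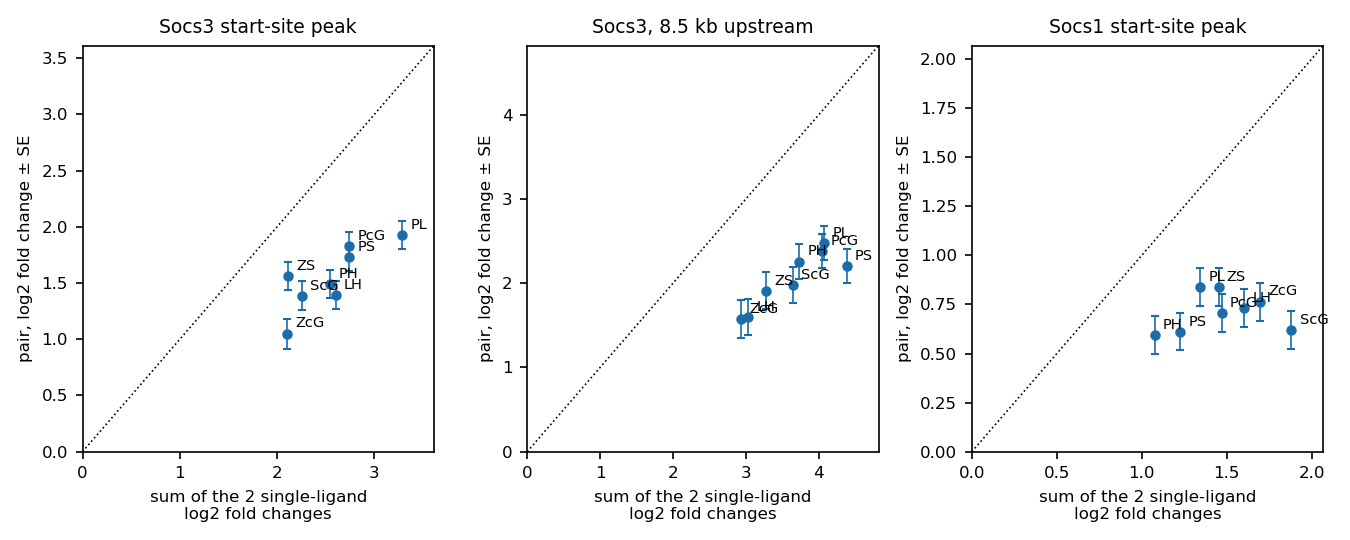
Log2 fold change of each pair against control ± SE (vertical axis) against the sum of the log2 fold changes of its 2 ligands (horizontal axis) at the Socs3 start site, Socs3 -8545 and the Socs1 start site (panels), with the line of equality. All pairs lie below the line, including ZS at the Socs3 start site, the 1 pair there that was not called.

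In triplets the third-order term was positive wherever it was called. This term, the triplet less its pairs plus its single ligands less control, was called in 16 of 273 member tests, all of them positive, beside 0.837% and 0.722% of all peaks called. PLH had 3 (0.783% of all peaks in either direction), PScG 7 (2.00%) and ZScG 6 (1.89%). They fell at Socs3 (8), Cish (3), Socs1 (2), Dusp2 (2) and Dusp1 (1). The lowest p was at Socs3 -8545 in PScG (2.31 ± 0.351, adjusted p = 1.09e-06), and the Socs1 start site gave 1.12 ± 0.188 in ZScG (adjusted p = 1.78e-05) and 1.09 ± 0.184 in PScG (adjusted p = 1.80e-05). Since the pair terms at these sites were negative and enter with the opposite sign, a triplet level close to that of its pairs gives a positive term. The groups added and subtracted differ in mitochondrial share in these terms too.

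Compared directly, few peaks outside Socs3 differed between triplets and their pairs. Of 819 member tests of a triplet against each of its pairs, 34 were higher and 1 was lower, beside 0.497% and 0.61% of all peaks, and 21 of the 35 calls were at Socs3. PScG against ScG gave 17 higher calls (2.11% of all peaks), a comparison of groups at 45.1% and 59.4% mitochondrial share. PLH against LH gave 6 (0.343%) and PScG against PS 5 (0.368%), within 1 range of that share. PLH against PL gave 0 calls with edgeR and 0 with DESeq2, with 5 peaks at an unadjusted p under 0.05 (0.000837% of all peaks called). PScG against PcG gave 0 and 1, with 18 at an unadjusted p under 0.05 (0.412%), and ZScG against ZS 0 and 0, with 11 (0.0586%). The lowest p was at Socs3 6918, with CPM of 13.5 and 13.2 in PScG against 2.70 and 4.81 in ScG (1.85 ± 0.249, adjusted p = 6.60e-09). At the Socs3 start site PScG exceeded PS, which lies in its own range of the share, by 0.40 ± 0.104 (adjusted p = 0.0356).

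The rest of the Socs, Dusp and Zfp36 families and of the pathway moved less one-sidedly. Among 100 peaks of 14 further Socs, Dusp and Zfp36 family genes, 284 of 1700 tests were higher (16.7%) and 207 lower (12.2%), with a median log2 fold change of 0.14. Over all peaks these shares were 13.0% and 12.3%. Dusp10, a phosphatase of p38 and JNK, had 86 higher and 4 lower of 238, and Socs7 35 higher of 119. Dusp6, a cytoplasmic phosphatase of ERK, had 45 lower of 68, Socs6 7 and 31 of 170, and Zfp36l2 3 and 29 of 119. Dusp22 was mixed, with 38 and 45 of 306.

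Genes of the JAK and MAP kinase pathways that these proteins act on, with phosphatases and PIAS inhibitors, had 839 higher (19.9%) and 260 lower (6.17%) of 4216 tests over 248 peaks, with a median of 0.27, beside the same 13.0% and 12.3% of all peaks. Mapkapk2, a kinase below p38, had 148 higher and 5 lower of 527. The interferon receptor kinase Tyk2 had 66 higher and 6 lower of 136, and Jak2 66 and 2 of 238. Mapk8, which encodes JNK1, had 10 higher and 40 lower of 187. No test of these lists against other peaks was made.

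Likeness over the 18 group means was described by Pearson's r between a start-site peak and 10233 candidate peaks near genes. The groups share 1 normalisation, and no p is given. Socs1 was most like Irf7, an interferon-induced transcription factor (r = 0.902), and Trafd1 (0.885). Socs3 was most like Denr (0.934), Dusp1 like the shared peak of Drap1 and AI837181 (0.959), Dusp5 like that of Ddit3 and Mbd6 (0.939), Cish like Bcl6b (0.928) and Zfp36 like that of Brd2 and H2-DMa (0.921). Dusp2 was most like Unk (0.906), Socs2 like Copg1 (0.903) and Dusp4 like Id2 (0.827). Among members, Dusp1 and Zfp36 were most alike (0.904), followed by Socs3 and Dusp2 (0.864). Under TMM scaling, Socs1 and Dusp4 ran opposite (-0.555), and the direction of the Dusp4 start-site peak rests on that scaling.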

How the data were processed

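Per the file header, the authors deposited 1 table of counts: raw reads per peak for 36 ATAC-seq libraries over 119751 peaks on mm10. The submitters' processing notes list Bowtie2 2.2.9, MACS2, bedtools and featureCounts, without their roles. Whether peaks were called on pooled libraries, how duplicates were treated and whether read ends were shifted are not given in the sources used here. Genes, promoters and spans came from RefSeq (GRCm38.p6).

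The mitochondrial peak was left out, and peaks with low counts were dropped by edgeR's filterByExpr (minimum count 10, by group), leaving 119464 and removing 286. All 36 libraries entered 1 edgeR 4.0.16 quasi-likelihood fit in R 4.3.3, with TMM scaling, a trended dispersion, robust estimation and 18 residual degrees of freedom. It gave 68 contrasts. Benjamini-Hochberg adjustment ran over all tested peaks within each contrast, and a peak was called at an adjusted p under 0.05. The standard error is the absolute log2 fold change divided by the square root of F. CPM used TMM-effective library sizes without the mitochondrial peak. With 2 libraries a group, the spread is shared across groups, and counts of a few reads give wide errors.

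The members and lists were chosen with earlier results of these data known. Named for each gene are its start-site peak and the called peak with the largest change against control. Peaks named beyond that rule, such as those that separate ligands, were chosen after their values were seen. The fit was also run on simulated counts with known changes, and the outcome of that run is not given here. Replicate numbers did not pair libraries across groups: over 153 pairs of groups the correlation of deviations ran from -0.0400 to 0.0300. Alternatives were other scalings, DESeq2 1.42.0, no filter, thinned libraries, a replicate block, fits within a triplet and leaving out each library.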

Additional observations from a re-analysis of the deposited data

Results flagged for a closer look

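The interaction term of the fit tested whether the effect of a ligand differed with the presence of the others, and it was called at some member peaks in each of 11 combinations. Among pairs, it was called at 12 of the 91 peaks for PAM + LPS (6.75% of all peaks called), 3 for PAM + HMW (1.55%), 11 for LPS + HMW (4.88%), 7 for PAM + cGAMP (3.27%), 5 for zymosan + SeV (3.43%) and 6 for zymosan + cGAMP (2.49%). For PAM + SeV it was called at 4 (4.40% of members, 4.59% of all peaks) and for SeV + cGAMP at 13 (14.3% and 14.4%). Counted in either direction, these shares are those of the background, and the number of calls is no result about the members. By direction, all of these member calls were negative, where 2.9% (PAM + SeV) and 7.52% (SeV + cGAMP) of all peaks were called lower. The member calls were negative except 1 positive call in zymosan + SeV. Among triplets, the third-order term was called at 3 peaks for PAM + LPS + HMW (0.783% of all peaks), 7 for PAM + SeV + cGAMP (2.00%) and 6 for zymosan + SeV + cGAMP (1.89%), all positive at the members.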

How the results depend on the processing

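Counts of member tests called depended most on scaling. With total-count scaling, which moved the median log2 fold change of all peaks against control by -0.057 to 0.42, the higher calls against control went from 412 to 618, the lower calls from 38 to 9, the pair interactions from 61 to 145 and the triplet interactions from 16 to 46. With libraries thinned to 1 depth, the figures were 344 higher, 21 lower, 74 pair against single (124 in full), 7 triplet interactions and 16 triplet against pair (35 in full). DESeq2 called 411 higher, median-of-ratios scaling 422 and abundance-dependent scaling, chosen after seeing the data, 430. With replicate number as a block, the counts were 413, 38, 124, 61, 16, 35 and 174, in the order higher, lower, pair against single, pair interaction, triplet interaction, triplet against pair and single against single. The block moved none of these counts by over 1.5 times, and the numbers do not pair the libraries. In each leave-out, only the contrasts of that library's group were refitted, with the dispersion trend of the full fit kept. Contrasts without that group kept their calls from the full fit. A family of contrasts without that group therefore keeps its full count by construction, and the ranges show only part of the possible movement. Leaving out 1 library gave 313 to 414 higher, 20 to 39 lower, 98 to 124 pair against single, 40 to 62 pair interactions, 10 to 16 triplet interactions, 22 to 35 triplet against pair and 134 to 174 single against single. The lower calls came to 20 without control replicate 2 and 23 without control replicate 1. The pair interactions came to 40 without control replicate 1, and the triplet interactions to 10 without control replicate 1 or SeV replicate 1. Triplet against pair gave 22 without PScG replicate 1 and 23 without ScG replicate 2. For the peaks and stimulations named by rule, 202 of 206 alternatives and 95 of 108 leave-outs kept direction and side of the threshold, and none reversed. Over all 17 stimulations, start-site peaks did change sign with the scaling: with total-count scaling Dusp4 ran from -0.36 to 0.26 and Dusp16 was called higher in 4. The causes were not tested.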
